A study of Homo sapiens with 27 samples.

Results

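The genes described here are 32 genes of the enterocyte, the absorptive cell of the intestinal lining, and of the lipoproteins that it makes. They were chosen by name, and each was looked up among the 17687 named genes of the array table. These genes and the other lists below were chosen with earlier results of these data known. Their shares beside those of all genes are therefore descriptions and not tests. A single gene row was found for 31 of the 32, and HNF4A was not analysed here. The 31 genes comprise 3 transcription factors, 1 factor of RNA editing, 7 genes of lipoprotein assembly and fatty acid binding, 4 transporters, 7 surface hydrolases, 1 esterase and 8 genes of the brush border.

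Total RNA of the human colorectal cancer lines Caco2, LIM1215 and SW48 was hybridised to 27 Affymetrix arrays of whole transcripts in a single colour, 3 for each of 9 groups. Withdrawal cells were resistant cells grown on for 20 cycles with the treatment left out. Resistant cells were those that had outlived 20 cycles of challenge by NK-CD16 cells, natural killer (NK) cells with the Fc receptor CD16, together with cetuximab at 1 ug/ml, an antibody that binds EGFR on the tumour cell. Parental cells of the same line had seen neither. Per the labels, each parental line had been grown from a single clone, so each line is 1 clone of 1 tumour. LIM1215 was kept in RPMI with hydrocortisone and insulin, SW48 in RPMI and Caco2 in Eagle's medium, so the line and its medium cannot be told apart. The labels do not say whether the arrays of a group came from separate cultures, so p-values measure only the spread between these samples, which may be technical.

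An enterocyte carries on its free surface a brush border, a dense carpet of microvilli whose actin cores are bundled by villin and espin. Protocadherins link the tips of neighbouring microvilli, and a scaffold of harmonin and the motor MYO7B anchors them inside. Hydrolases on the microvilli cut sugars and peptides, transporters take up the products, and absorbed fat is packed onto apolipoprotein B for export. CDX and HNF4 factors are known to switch on this set of genes in the intestine. Caco2 is widely used as a model of the small-intestinal enterocyte, and it also makes many proteins of the liver.

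Each value below is the deposited value of a gene on an array, read as log2, so that a difference of 1 is a 2-fold change. A group is near background where its mean was lower than the 95th percentile of negative controls, averaged over its arrays. Folds against a group near background are lower bounds ("at least"), with none where both groups are near it. Changes were tested with limma over all 17687 genes, the error after ± is the fit's standard error (SE, n = 3 arrays a group), and "called" means an adjusted p below 0.05. Deposited values have another scale in each line, so levels are compared within a line only, and no level is set against that of another gene.

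The lines held very different parts of the set. In Caco2, 16 of the 31 genes lay above background in at least 1 state, which is 51.6% against 48.3% of all genes. That count rests on the resistant state, with 16 above background in resistant, 11 in parental and 11 in withdrawal Caco2. APOA4, SLC2A2, SLC2A5, ANPEP and ESPN were above background in resistant Caco2 only. Of all genes, 8019 were above background in resistant, 8202 in parental and 7909 in withdrawal Caco2. In LIM1215 there were 13, or 41.9% against 53.9% of all genes. In SW48 there were 3, or 9.68% against 50% of all genes, namely DPP4, CDX2 and HNF4G. CDX2 and DPP4 were above background in every line, and MTTP, FABP2, SI, LCT, ALPI, AADAC, CDHR2 and MYO1A in none. Genes of lipoproteins, transport and microvilli were thus detected in Caco2 and in part in LIM1215, while SW48 had no detected lipoprotein, transporter or microvillus gene of the list. Of 8 general epithelial markers, 8 were above background in LIM1215, 7 in Caco2 and 6 or 7 in SW48, depending on the state.

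Replicate arrays correlated at 0.99465 to 0.99646 over all genes in 8 of the 9 groups. The exception was parental LIM1215, where replicates 1 and 2 correlated at 0.99682 and replicate 3 with them at 0.98709 and 0.98721. LIM1215 results are therefore also given without that array. Transcripts of NK cells were present in resistant cultures: of 28 NK and leukocyte markers, 11 lay above background in resistant Caco2, against 1 in parental Caco2, 15 in resistant LIM1215, against 2 in parental LIM1215, and 6 in resistant SW48, against 1 in parental SW48. Withdrawal cultures had 1, 2 and 1 of them above background in Caco2, LIM1215 and SW48. In bulk RNA, fewer cells of a type and less RNA per cell cannot be told apart.

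**Figure D1:**
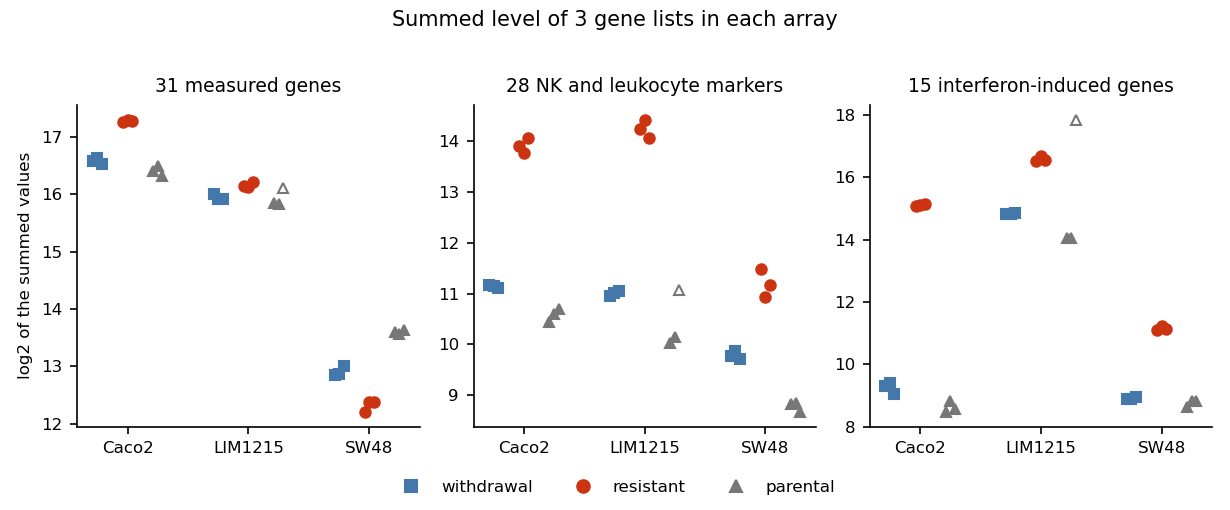
Log2 of the summed deposited values (vertical axis) of the 31 measured genes, of 28 NK and leukocyte markers and of 15 interferon-induced genes in each array, by line; the open triangle is parental LIM1215 replicate 3. The 31 genes sum to 17.26 to 17.31 in resistant Caco2, above 16.32 to 16.50 in parental Caco2. In SW48 the sum is 12.20 to 12.38 in resistant and 13.57 to 13.63 in parental arrays. There 28 of the 31 genes are near background, and only DPP4, CDX2 and HNF4G lie above it.

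More than 1 in 2 genes of the enterocyte set were higher in resistant than in parental Caco2 cells. Of the 31 genes, 18 were called higher and 0 lower. A log2 change of at least 1 (2-fold or more) was reached by 16 of the 18, and 12 of these had a group above background. Over all genes, 27.4% were called, 12.9% higher and 14.5% lower, and 6.1% were higher by 2-fold or more. Of the 18, AADAC, ALPI, LCT, EPS8L3 and MTTP were near background in both groups. The median change of the 31 was 1.14 on the log2 scale, against -0.03 for all genes. The 3 resistant arrays lay above all 3 parental arrays for 19 of the 31 genes, as they did for 18.6% of all genes. The genes that rose included 6 of 7 of lipoproteins and fatty acid binding, 3 of 4 transporters, 3 of 7 surface hydrolases (ANPEP, ALPI and LCT) and 4 of 8 of the brush border, and 0 of the 3 transcription factors was among them.

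APOC3, an inhibitor of lipoprotein lipase, had the largest change. Its values were 13.69, 13.83 and 13.94 in resistant arrays, against 10.27, 9.37 and 9.43 in parental arrays. That is 17.55-fold higher (log2 change 4.13 ± 0.25 SE, adjusted p = 9.63e-12), and the groups did not come near each other. APOA4, an apolipoprotein of intestinal chylomicrons, read 10.34, 9.97 and 10.25 in resistant arrays, against 6.44, 6.83 and 7.02 in parental arrays, which were near background. It rose at least 5.397-fold (3.42 ± 0.25, adjusted p = 2.73e-10). APOA1, the main protein of high-density lipoprotein, was above background in all 3 states and rose: 15.13, 15.05 and 15.21 in resistant arrays stood against 13.88, 13.85 and 13.85, a 2.408-fold difference (1.27 ± 0.16, adjusted p = 1.28e-06). APOC3, APOA4 and APOA1 are neighbours on chromosome 11, where APOA5, APOA4, APOC3 and APOA1 follow each other among the protein-coding genes.

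APOB, the structural protein of chylomicrons, rose less. It read 14.59, 14.57 and 14.52 in resistant arrays and 13.76, 13.88 and 13.52 in parental arrays, a 1.795-fold rise (0.84 ± 0.22, adjusted p = 0.00558). A1CF is the RNA-binding partner of the enzyme that edits APOB messenger RNA in the gut. It had 12.90, 13.01 and 12.85 in resistant arrays, against 10.89, 10.64 and 10.84 in parental arrays, 4.382-fold higher (2.13 ± 0.26, adjusted p = 1.02e-06). FABP1, the liver-type fatty acid binding protein that enterocytes also use, had 11.08, 11.10 and 11.30 in resistant arrays, against 9.49, 9.36 and 9.22, 3.487-fold higher (1.80 ± 0.22, adjusted p = 9.22e-07). MTTP, which loads lipid onto apolipoprotein B, was called higher (0.85 ± 0.20, adjusted p = 0.00188) with both groups near background, at 5.67 in resistant and 4.82 in parental arrays. FABP2, the intestinal fatty acid binding protein, was near background throughout Caco2 and was not called.

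Among transporters, SLC2A2 (GLUT2, the basolateral glucose exit of the enterocyte) and SLC2A5 (GLUT5, the fructose carrier) were above background in resistant arrays and near it in parental arrays. SLC2A2 had 11.36, 11.15 and 11.51 in resistant arrays, against 7.69, 7.37 and 7.24 in parental arrays, a rise of at least 12-fold (3.91 ± 0.22, adjusted p = 2.59e-12). SLC2A5 had 8.18, 8.45 and 7.93 in resistant arrays, against 4.75, 3.93 and 4.68 in parental arrays. The resistant arrays were only just above background, so the bound is at least 1.35-fold although the log2 difference was 3.74 ± 0.33 (adjusted p = 4.55e-09). SLC15A1, the peptide carrier PEPT1, had 9.32, 9.56 and 9.05 in resistant arrays, against 8.32, 7.32 and 8.14, and was 2.607-fold higher (1.38 ± 0.33, adjusted p = 0.00267). SLC5A1, the sodium-coupled glucose carrier SGLT1, was near background in all Caco2 arrays.

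Of the surface enzymes, ANPEP (aminopeptidase N) had 11.01, 11.18 and 10.95 in resistant arrays, against 7.49, 7.35 and 7.63 near background in parental arrays. It rose at least 9.482-fold (3.55 ± 0.32, adjusted p = 7.63e-09). ALPI, the intestinal alkaline phosphatase, LCT, lactase, and AADAC, an esterase of the endoplasmic reticulum, were called higher by 2.40, 1.54 and 2.67 on the log2 scale, with both groups near background. DPP4 (dipeptidyl peptidase 4), in contrast, was above background in all states without a call. It had 14.93 to 15.24 in resistant arrays and a mean of 15.14 in parental arrays, which overlap (-0.07 ± 0.22, adjusted p = 0.872). SI (sucrase-isomaltase), MME (neprilysin) and ACE were near background in both groups and were not called.

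The brush border genes divided. CDHR5, a protocadherin of the links between microvilli, had 12.41, 12.34 and 12.20 in resistant arrays, against 8.99, 8.89 and 8.81 in parental arrays, 10.74-fold higher (3.42 ± 0.31, adjusted p = 6.98e-09). ESPN, the actin bundler espin, had 10.07, 9.77 and 9.88 in resistant arrays, against 7.67, 6.86 and 8.16 near background in parental arrays, at least 3.823-fold higher (2.35 ± 0.34, adjusted p = 1.09e-05). VIL1, villin, was 2.2-fold higher, with 14.15, 14.22 and 14.25 in resistant arrays, against 13.05, 13.03 and 13.12 (1.14 ± 0.15, adjusted p = 1.68e-06). USH1C, the scaffold harmonin, had all 3 resistant arrays above the parental ones (means 8.48 and 7.99) and was not called (adjusted p = 0.0824). EPS8L3 was called higher by 1.22 with both groups near background, and CDHR2, MYO1A and MYO7B were near background and not called.

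None of the 3 transcription factors of the list was called in resistant against parental Caco2. CDX2, the intestinal homeobox factor, had 12.98, 12.82 and 12.81 in resistant arrays, against 13.08, 13.18 and 13.03 in parental arrays (-0.22 ± 0.11, adjusted p = 0.139). HNF4G, a nuclear receptor of the enterocyte, was near background, with 4.61, 5.17 and 5.33 in resistant arrays and 5.71, 5.65 and 5.19 in parental arrays (-0.48 ± 0.19, adjusted p = 0.0732). CDX1, the other CDX factor, was near background too, with 3.14, 3.21 and 3.08 in resistant arrays and 3.47, 3.53 and 3.47 in parental arrays (adjusted p = 0.129).

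**Figure D2:**
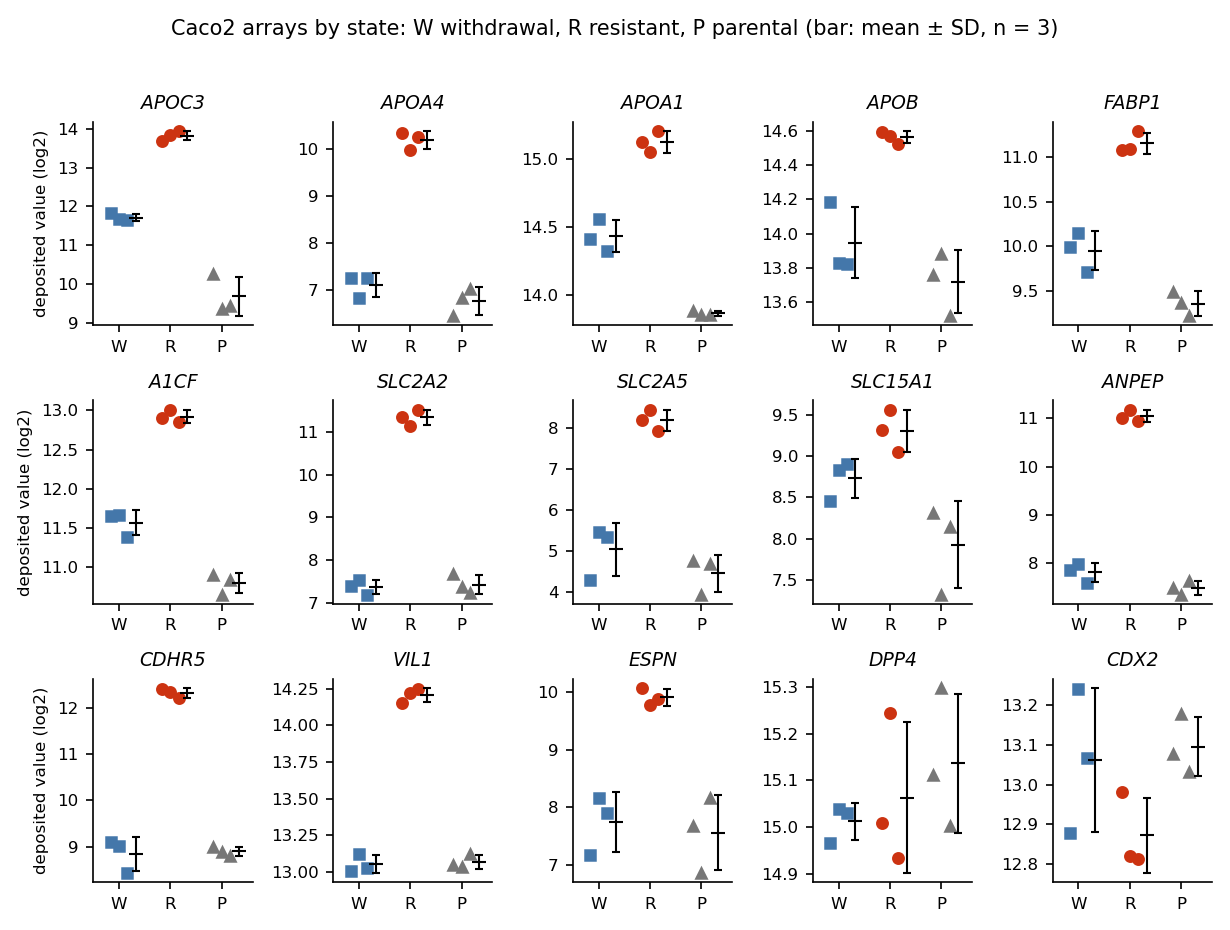
Deposited log2 value (vertical axis, its own range in each panel) of 15 genes in the 9 Caco2 arrays, with withdrawal (W), resistant (R) and parental (P) arrays side by side and the mean ± SD of 3 arrays as a bar. For 13 of the genes the 3 resistant arrays lie above the 3 parental arrays (APOC3 means 13.82 and 9.69), DPP4 and CDX2 differ by at most 0.22 on average, and APOC3 is the gene whose withdrawal arrays, mean 11.71, stand far above the parental ones.

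The 250 bases before the transcription start of SLC2A2, SLC2A5, ANPEP and APOA4 are shown because these had the largest changes in resistant Caco2 of the genes above background with an entry in the promoter table. The sequences were RefSeq's for GRCh38.p14, 5′ to 3′ on the gene's own strand. Capitals mark matches to any of 4 motifs searched on both strands, TTTATNG for CDX, CAAAGTNCA for HNF4, TATAAA for the TATA box, and the HNF1 motif.
SLC2A2, chr3:171026721-171026970, minus strand: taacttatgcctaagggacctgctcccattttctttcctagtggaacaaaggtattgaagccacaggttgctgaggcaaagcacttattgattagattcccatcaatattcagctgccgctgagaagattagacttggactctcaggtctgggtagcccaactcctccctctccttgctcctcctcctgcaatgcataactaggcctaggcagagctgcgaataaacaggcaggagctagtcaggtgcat
SLC2A5, chr1:9069636-9069885, minus strand: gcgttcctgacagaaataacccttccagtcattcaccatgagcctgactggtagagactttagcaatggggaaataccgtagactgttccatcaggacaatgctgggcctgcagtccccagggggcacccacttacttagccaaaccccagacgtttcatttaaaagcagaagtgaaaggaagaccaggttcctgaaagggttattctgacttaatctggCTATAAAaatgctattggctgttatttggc
ANPEP, chr15:89814853-89815102, minus strand: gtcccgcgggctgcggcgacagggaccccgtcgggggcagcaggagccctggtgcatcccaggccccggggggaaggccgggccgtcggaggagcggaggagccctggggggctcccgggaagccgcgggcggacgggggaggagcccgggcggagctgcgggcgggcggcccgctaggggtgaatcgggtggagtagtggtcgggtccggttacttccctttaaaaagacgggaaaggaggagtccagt
APOA4, chr11:116823305-116823554, minus strand: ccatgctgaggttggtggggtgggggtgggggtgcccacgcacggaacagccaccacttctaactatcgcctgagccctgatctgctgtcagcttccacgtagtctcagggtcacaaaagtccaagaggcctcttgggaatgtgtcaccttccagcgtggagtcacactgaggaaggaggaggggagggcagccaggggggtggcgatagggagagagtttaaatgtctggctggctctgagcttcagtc
The SLC2A5 match lies 30 to 24 bases before the start, and its letters serve as the CDX match on the reverse strand and as the TATA box at once. The other 3 windows hold none of the 4 motifs, which says only that these letters are not there. Over the 22 of the 31 genes with an entry, 6 windows (27.3%) held the CDX letters, against 9.29% of 27305 windows of the same length in the table. The 6 were those of CDX2, FABP1, SLC2A5, SI, AADAC and MYO1A, of which FABP1 and SLC2A5 also hold the TATA box. The TATA box letters stood in 3 of the 22 windows (13.6%), against 11.1% of all. The HNF1 and HNF4 letters stood in 0 of the 22, against 0.271% and 0.912% of all. A match is a description of letters and was not tested as a site.

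In the same comparison, other genes of intestinal and liver-type function were also higher in resistant Caco2. Of all genes, 12.9% were called higher and 14.5% lower there. Of 23 further genes of fat and sterol absorption, 14 were called higher and 1 lower (median 0.80). They were led by MOGAT3 and DGAT2, which build triglyceride, ABCA1, which exports cholesterol, and RBP2, an intestinal retinol binding protein, higher by 3.04, 1.72, 2.20 and 1.61. Of 22 plasma proteins made by hepatocytes, 16 were called higher and 0 lower (median 1.47), with SERPINA1 at 4.22 and albumin (ALB) at 4.17. Of 30 further brush border genes, 13 were higher and 2 lower (median 0.32), and of 26 further solute carriers 10 were higher and 2 lower (median 0.53). The adhesion protein CEACAM1 was higher by 5.27 and the vitamin C carrier SLC23A1 by 3.33.

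Of 17 further enterocyte transcription factors, 6 were called higher and 1 lower (median 0.25), with CREB3L3, a lipid-responsive factor of liver and gut, higher by 3.01. Of 18 further hydrolases 2 were higher and 2 lower, of 17 genes of colonocyte maturation 5 and 3, of 12 goblet markers 3 and 1, of 9 enteroendocrine markers 0 and 1, of 11 stem and WNT markers 4 and 2, and of 22 cell cycle genes 1 and 4. Of 8 general epithelial markers, 1 was higher and 0 lower. The share of all genes called was 27.4%, with 12.9% higher and 14.5% lower. The log2 summed level of the goblet markers was 12.93 to 13.12 in resistant arrays, against 11.25 to 11.44 in parental arrays, with 2 of the 12 genes above background in each group. NK markers moved with the comparison: 26 of 28 were called higher and 0 lower, and their log2 summed level was 13.78 to 14.07 in resistant arrays, against 10.43 to 10.69 in parental arrays. Interferon-induced genes did too, with 12 of 15 higher and 0 lower and summed levels of 15.09 to 15.14 in resistant arrays, against 8.47 to 8.83 in parental arrays. The part of either in the rise of the enterocyte genes was not tested.

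Many genes of the enterocyte set were lower in withdrawal than in resistant Caco2 cells. Against resistant Caco2, withdrawal Caco2 had 16 of the 31 genes called lower and 1 higher, with 24.7% of all genes called, 12.1% higher and 12.5% lower. The median change of the 31 was -0.70, against 0.01 for all genes. The fall was largest for SLC2A2, with 7.39, 7.54 and 7.20 in withdrawal arrays, at least 10.2-fold lower than in resistant arrays (-3.97 ± 0.22, adjusted p = 2.31e-12). CDHR5 had 9.10, 9.01 and 8.43 in withdrawal arrays, 11.11-fold lower than in resistant arrays (-3.47 ± 0.31, adjusted p = 6.20e-09). ANPEP, with 7.87, 7.98 and 7.60, fell at least 7.866-fold, and APOA4, with 7.25, 6.82 and 7.25, at least 4.588-fold. SLC2A5, ESPN, A1CF, FABP1, VIL1, APOA1, APOB, MTTP, LCT, ALPI and AADAC were called lower too. Of these, MTTP, LCT, ALPI and AADAC were near background in both groups. The call of APOB (adjusted p = 0.0463) was lost in 21 of 34 other settings and that of LCT in 3 of 33. SLC15A1, with 8.45, 8.83 and 8.90 in withdrawal arrays, lay below the resistant arrays and was not called (adjusted p = 0.242). HNF4G, near background, was the 1 gene called higher.

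Set against parental Caco2, 2 of the 31 genes were called in withdrawal Caco2, both higher, where 5.28% of all genes were called, 2.73% higher and 2.54% lower. APOC3 had 11.82, 11.67 and 11.64 in withdrawal arrays, so that withdrawal cells were still 4.071-fold above parental cells (2.03 ± 0.25, adjusted p = 1.33e-05) while 4.311-fold below resistant cells (-2.11 ± 0.25, adjusted p = 7.69e-07). APOA1 had 14.41, 14.56 and 14.32 in withdrawal arrays, 1.486-fold above parental cells (0.57 ± 0.16, adjusted p = 0.0358), a call that was lost in 10 of 34 other settings (adjusted p 0.0076 to 0.154). Each lay above parental and below resistant arrays without overlap.

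A further 6 genes had all withdrawal arrays above all parental arrays, and they were not called. Above background were A1CF, with 11.65, 11.67 and 11.38 (0.78, adjusted p = 0.103), FABP1, with 9.99, 10.15 and 9.71 (0.60, adjusted p = 0.15), SLC15A1 (0.80, adjusted p = 0.226) and USH1C, with 8.59, 8.63 and 8.46 (0.57, adjusted p = 0.132). ALPI (0.85, adjusted p = 0.32) and EPS8L3 (0.74, adjusted p = 0.0741) were near background in both groups. Over all 31 genes, 8 had such an order and 4 the opposite one, where 11% and 12.4% of all genes did. VIL1, SLC2A2 and CDHR5 in withdrawal arrays were within 0.06 of parental Caco2 on average. NK markers had 0 of 28 called in this comparison. Their summed level was 11.12 to 11.17 in withdrawal arrays, against 10.43 to 10.69 in parental arrays. IL2RG was the 1 marker above background in either group, with means of 10.89 in withdrawal and 10.07 in parental arrays.

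For withdrawal against parental Caco2, few genes of the other lists were called, where 5.28% of all genes were. Called higher and lower were 2 and 0 of 23 genes of fat and sterol absorption, 2 and 0 of 22 plasma proteins, 2 and 3 of 30 brush border genes, 2 and 0 of 26 solute carriers and 2 and 0 of 17 transcription factors. Against resistant Caco2, 13 of the 23 genes of fat and sterol absorption and 15 of the 22 plasma proteins were lower, as were 12.5% of all genes.

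In LIM1215 the lipoprotein, sugar transporter and esterase genes of the list were near background, except FABP1 and, in withdrawal cells, SLC5A1. The measured genes were those of the brush border, the peptidases DPP4, MME and ACE, and the transcription factors CDX1, CDX2 and HNF4G. Parental replicate 3 went its own way in many of them. Of the 13 measured genes, 6 were at least 2-fold higher there than the mean of parental replicates 1 and 2 and 1 was at least 2-fold lower, while 11.2% of all genes above background moved that far either way. CDHR5 read 12.27 in parental replicate 3 against a mean of 10.52 in the other two, ACE 8.73 against 7.27, MYO7B 8.29 against 7.02 and EPS8L3 13.55 against 12.55. Those 4 values sat near the withdrawal means of 12.09, 8.73, 8.55 and 13.54. Interferon-induced genes were high on the same array, whose log2 summed level of them was 17.85, the highest of the 9 LIM1215 arrays. Their part in these values was not tested.

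**Figure D3:**
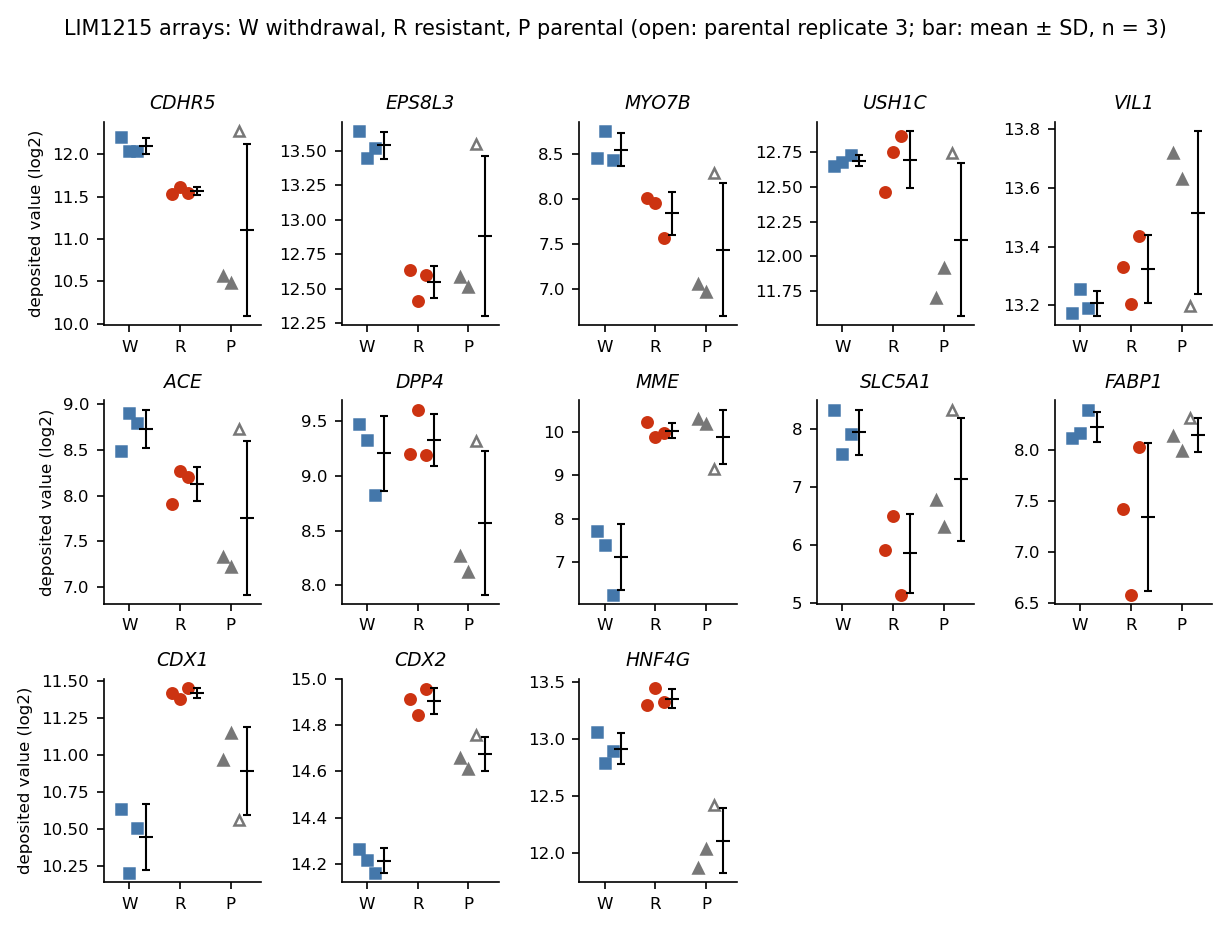
Deposited log2 value (vertical axis, its own range in each panel) of the 13 genes above background in LIM1215, with withdrawal (W), resistant (R) and parental (P) arrays side by side and the mean ± SD of 3 arrays as a bar. The open triangle, parental replicate 3, lies apart from the other 2 parental arrays for CDHR5 (12.27 against 10.57 and 10.48), EPS8L3, MYO7B, ACE, DPP4 and SLC5A1.

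In withdrawal LIM1215 cells, CDHR5, EPS8L3 and MYO7B of the brush border were called higher than in parental LIM1215 cells, and MME lower. The log2 summed level of the 8 brush border genes overlapped, with 14.98 to 15.04 in withdrawal arrays and 14.56 to 15.04 in parental arrays. Of the 31 genes, 9 were called higher and 2 lower, with 21.1% of all genes called, 9.89% higher and 11.2% lower. Without parental replicate 3 there were 12 higher and 4 lower, with 28.4% of all genes called. MME (neprilysin, a peptidase of the brush border) had 7.70, 7.40 and 6.25 in withdrawal arrays, near background, against 10.30, 10.19 and 9.15 in parental arrays. It fell at least 4.979-fold (-2.76 ± 0.30, adjusted p = 1.53e-06), and by 3.13 on the log2 scale without parental replicate 3. MYO7B, the motor of the microvillus tip scaffold, had 8.46, 8.76 and 8.44 in withdrawal arrays, against 7.06, 6.98 and 8.29 in parental arrays. It was 2.157-fold higher (1.11 ± 0.24, adjusted p = 0.00163), and was not called in a fit of the LIM1215 arrays alone (adjusted p = 0.0551).

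Other genes were called although parental replicate 3 overlapped the withdrawal arrays. CDHR5 had 12.20, 12.04 and 12.04 in withdrawal arrays, against 10.57, 10.48 and 12.27 in parental arrays (0.99 ± 0.31, adjusted p = 0.0236). Without parental replicate 3 its change was 1.57 (adjusted p = 3.58e-06). EPS8L3, an actin regulator of the EPS8 family, rose by 0.66 with all arrays (adjusted p = 0.0488) and by 0.99 without that array. ACE rose by 0.97 (adjusted p = 0.0294) and by 1.46 without it, and DPP4 by 0.64 (adjusted p = 0.0468) and by 1.01 without it. Of 34 other settings, the call was lost in 24 for EPS8L3 and 24 for DPP4, in 6 for CDHR5 and in 5 for ACE. In the fit of the LIM1215 arrays alone, each of these 4 calls was lost (adjusted p 0.11 to 0.222). USH1C and SLC5A1 were not called with all arrays (adjusted p = 0.052 and 0.102) and were called without that array, at 0.88 and 1.40, as was VIL1, at -0.47. The near-background genes A1CF, APOA1 and MYO1A made up the rest of the 9.

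The transcription factors of LIM1215 went different ways. HNF4G had 13.06, 12.78 and 12.90 in withdrawal arrays, against 11.86, 12.03 and 12.42 in parental arrays, 1.75-fold higher (0.81 ± 0.19, adjusted p = 0.00442). CDX2 had 14.27, 14.22 and 14.16 in withdrawal arrays, against 14.66, 14.61 and 14.76, and was 1.377-fold lower (-0.46 ± 0.11, adjusted p = 0.00359). CDX1 had 10.64, 10.20 and 10.51 in withdrawal arrays, against 10.97, 11.15 and 10.56 in parental arrays (-0.45, adjusted p = 0.0544), and it was called lower without parental replicate 3 (-0.61, adjusted p = 0.00669). Thus CDX2 stood lower and HNF4G higher in the same withdrawal cells, while CDX1 was not called with all arrays.

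Other lists in withdrawal against parental LIM1215 had 9 higher and 1 lower of 30 brush border genes, 6 and 0 of 17 transcription factors, 4 and 3 of 23 genes of fat and sterol absorption, 3 and 0 of 17 genes of colonocyte maturation, 2 and 3 of 26 solute carriers, 3 and 3 of 18 hydrolases and 0 and 2 of 22 plasma proteins. The share of all genes called was 21.1%, with 9.89% higher and 11.2% lower. Of the transcription factors, KLF4 and NR5A2 were higher by 1.43 and 1.07. Cell cycle genes were lower in 13 of 22 and higher in 0, with MKI67 lower by 1.39 (log2 change -1.39), and stem and WNT markers were higher in 2 and lower in 5 of 11. NK markers were called higher in 1 of 28 and interferon-induced genes in 1 of 15. The counts of these other lists include parental replicate 3. The log2 summed level of interferon-induced genes was 14.82 to 14.84 in withdrawal arrays, against 14.04 to 17.85 in parental arrays. The mean value of the cell cycle genes was 13.115 to 13.154 in withdrawal arrays, against 13.173 to 13.935 in parental arrays.

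Resistant LIM1215 cells, set against parental LIM1215 cells, had 8 of the 31 genes called higher and 2 lower, with 10.8% of all genes called, 5.42% higher and 5.39% lower. Without parental replicate 3, 11 were called higher and 0 lower, with 14.7% of all genes called. HNF4G had 13.30, 13.45 and 13.32 in resistant arrays, against 11.86, 12.03 and 12.42 in parental arrays, 2.378-fold higher (1.25 ± 0.19, adjusted p = 6.70e-05). CDX1 had 11.42, 11.38 and 11.45 in resistant arrays, above its parental values (0.52 ± 0.16, adjusted p = 0.0382). That call was lost without parental replicate 3 (adjusted p = 0.166). It was also lost under quantile normalization, median centring, an intensity trend and the LIM1215 arrays alone (adjusted p 0.0631 to 0.13). CDX2 had 14.91, 14.84 and 14.96 in resistant arrays, above the parental ones and not called (0.23, adjusted p = 0.221). DPP4 had 9.20, 9.61 and 9.19 in resistant arrays, against 8.27, 8.12 and 9.32 in parental arrays (0.76 ± 0.22, adjusted p = 0.0291), a call lost in 5 of 34 other settings, and rose by 1.14 without parental replicate 3.

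FABP1 was lower in resistant LIM1215, with 7.43, 6.58 and 8.03 near background, against 8.14, 7.99 and 8.32 in parental arrays (-0.80 ± 0.22, adjusted p = 0.0177; at least 1.11-fold). That call was lost in 3 of 34 other settings, among them the fit without parental replicate 3 (adjusted p = 0.0556). CDHR5, MYO7B, ACE and USH1C were not called with all arrays and were called higher in resistant cells without parental replicate 3, by 1.04, 0.83, 0.86 and 0.89. The remaining calls were of genes near background in both groups, where ANPEP, FABP2, SLC2A5, SI and ESPN were higher and SLC5A1 lower. ANPEP read 7.01, 7.28 and 6.41 in resistant arrays, against 3.17, 3.89 and 5.01, and FABP2 6.97, 7.26 and 7.60, against 4.59, 4.84 and 4.68. In the same comparison 24 of 28 NK markers were called higher, with summed levels of 14.07 to 14.43 in resistant arrays, against 10.03 to 11.07 in parental arrays. Of 15 interferon-induced genes, 5 were called higher, and both counts include parental replicate 3. ANPEP (CD13) and DPP4 (CD26) are also known from blood cells, and the part of NK transcripts in these values was not tested.

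Withdrawal set against resistant LIM1215 takes no group mean from the parental arrays, which still enter the shared spread of the test. Of the 31 genes, 5 were called higher and 7 lower, with 27.9% of all genes called, 13.6% higher and 14.4% lower. Without parental replicate 3 there were 6 higher and 7 lower, with 31.2% of all genes called. CDHR5 was then called higher too (0.53, adjusted p = 0.0296). MME was at least 5.5-fold lower in withdrawal cells (-2.91 ± 0.30, adjusted p = 1.12e-07), against 10.22, 9.87 and 9.98 in resistant arrays. EPS8L3 had 13.64, 13.45 and 13.52 in withdrawal arrays, against 12.63, 12.41 and 12.60 in resistant arrays, 1.984-fold higher (0.99 ± 0.23, adjusted p = 0.00242). MYO7B was 1.63-fold higher (0.71 ± 0.24, adjusted p = 0.0279), a call lost in 4 of 34 other settings. SLC5A1, the glucose carrier, had 8.34, 7.58 and 7.91 in withdrawal arrays, against 5.92, 6.51 and 5.15 near background in resistant arrays (2.09 ± 0.34, adjusted p = 5.54e-05; at least 1.148-fold). CDX1 and CDX2 were 1.957-fold and 1.613-fold lower in withdrawal cells (-0.97 and -0.69), with arrays that did not overlap, as in 46% of all genes. FABP1 was higher (0.88, at least 1.173-fold), and so was APOA1 near background. FABP2, SLC2A5, SI and ANPEP, near background in both groups, were lower.

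SW48 cells held 3 measured genes of the set, and each was lower in resistant cells. Of the 31 genes, 0 were called higher and 4 lower in resistant against parental SW48, with 22.7% of all genes called, 10.9% higher and 11.8% lower. DPP4 had 7.71, 7.74 and 7.44 in resistant arrays, against 11.62, 11.18 and 11.39 in parental arrays. It was 13.62-fold lower (-3.77 ± 0.22, adjusted p = 1.11e-11), the largest fall from parental cells among the 31 genes in the 3 lines. CDX2 had 11.72, 11.99 and 12.01 in resistant arrays, against 12.88, 12.98 and 13.01 in parental arrays, 2.067-fold lower (-1.05 ± 0.11, adjusted p = 1.20e-07). HNF4G had 9.56, 9.36 and 9.39 in resistant arrays, against 10.33, 10.43 and 10.45 in parental arrays, 1.954-fold lower (-0.97 ± 0.19, adjusted p = 0.000621). No array of these 3 genes overlapped the other group, which held for 35.5% of all genes. The fourth call was USH1C (-1.04), near background in both groups. CDX1 was near background in SW48, with 2.79 to 3.07 in resistant and 2.56 to 3.33 in parental arrays.

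Withdrawal SW48 lay between the other states for these genes. Against resistant SW48, 4 of the 31 genes were called higher and 0 lower, with 22.2% of all genes called, 11.1% in each direction. DPP4 had 9.38, 9.16 and 9.17 in withdrawal arrays, 3.044-fold above resistant arrays (1.61 ± 0.22, adjusted p = 9.11e-06). CDX2 had 12.41, 12.40 and 12.57, 1.466-fold above resistant arrays (0.55 ± 0.11, adjusted p = 0.000487). HNF4G had 9.75, 10.15 and 10.12, 1.483-fold above resistant arrays (0.57 ± 0.19, adjusted p = 0.0378), a call lost in 6 of 34 other settings. USH1C was higher near background.

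Against parental SW48, 2 of the 31 genes were called in withdrawal SW48, both lower, with 4.08% of all genes called, 1.78% higher and 2.3% lower. DPP4 was 4.475-fold below parental cells (-2.16 ± 0.22, adjusted p = 1.84e-06) and CDX2 1.41-fold below (-0.50 ± 0.11, adjusted p = 0.00877). All withdrawal arrays of HNF4G also lay below its parental arrays, and it was not called (-0.40 ± 0.19, adjusted p = 0.326). In resistant against parental SW48, NK markers were called higher in 19 of 28 and lower in 1. Their summed levels were 10.93 to 11.49 in resistant arrays, against 8.66 to 8.84 in parental arrays. The lower marker was PTPRC, with means of 9.34 in withdrawal, 5.87 in resistant and 7.72 in parental arrays. PTPRC was also the 1 marker above background in parental and withdrawal SW48. The part of NK transcripts in the falls was not tested.

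In the other lists of SW48, resistant against parental cells had 0 higher and 5 lower of 17 transcription factors, 10 and 5 of 30 brush border genes, 0 and 1 of 23 genes of fat and sterol absorption, 0 and 2 of 26 solute carriers, 1 and 1 of 22 plasma proteins, 1 and 1 of 18 hydrolases and 1 and 1 of 17 genes of colonocyte maturation. In this comparison 22.7% of all genes were called, 10.9% higher and 11.8% lower. The brush border genes led by size were CEACAM5 (-2.59), PROM1 (-2.56), EPS8L2 (2.51) and STX3 (1.39). KLF5, a factor of the proliferating crypt, was lower by 0.80 (log2 change -0.80). Interferon-induced genes were higher in 9 of 15 and lower in 0. In withdrawal against parental SW48, 0 of the 17 transcription factors were called and 3 of the 30 brush border genes were higher and 1 lower. There 4.08% of all genes were called.

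**Figure D4:**
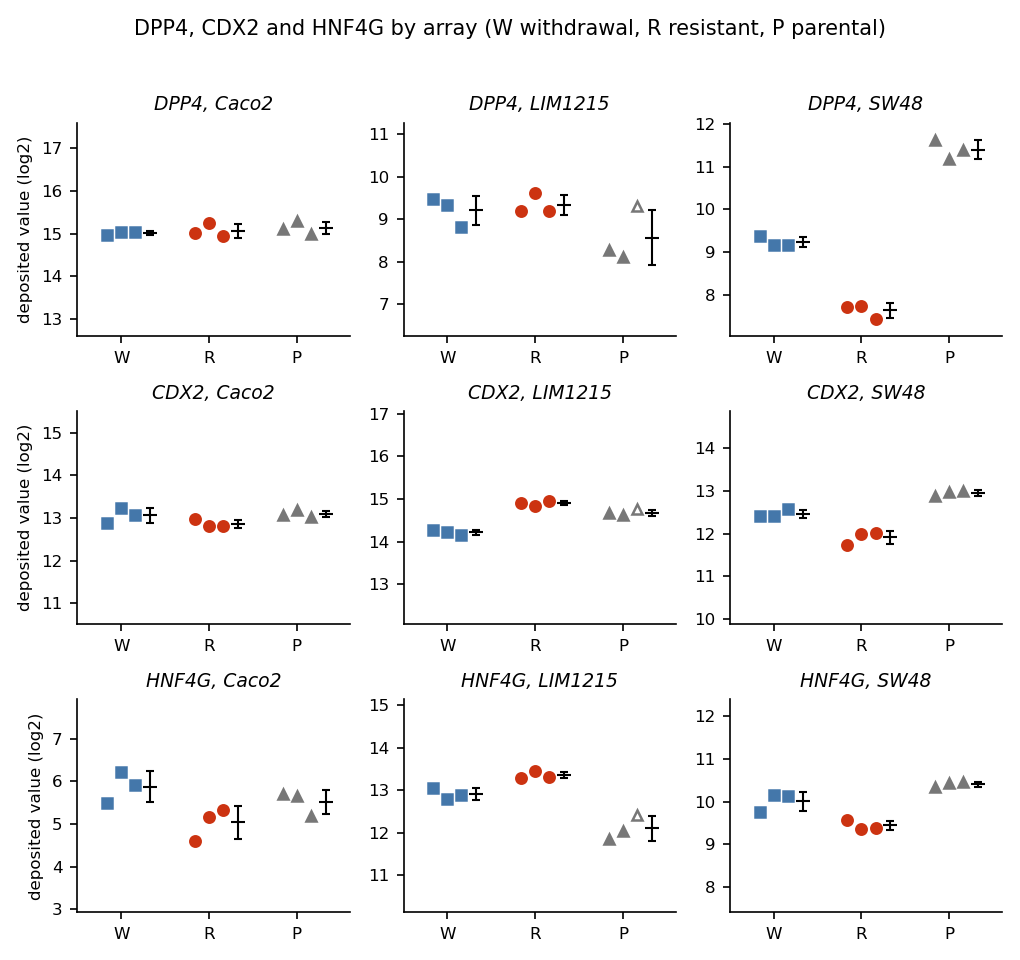
Deposited log2 values (vertical axis, the same span in every panel, with its own centre) of DPP4, CDX2 and HNF4G in withdrawal (W), resistant (R) and parental (P) arrays of each line, with the mean ± SD of 3 arrays as a bar. DPP4 falls in SW48 (means 9.24 in W, 7.63 in R and 11.40 in P) and lies at 15.06 in resistant and 15.14 in parental Caco2; HNF4G is near background in Caco2, and the open triangle is parental LIM1215 replicate 3.

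Tests of the difference in change between lines cover all 17687 genes. From parental to resistant, the change of 19 of the 31 genes differed between Caco2 and SW48, all more upward in Caco2, where 25.9% of all genes differed. Between Caco2 and LIM1215 there were 21, 16 more upward and 5 more downward in Caco2, with 21.3% of all genes. Between LIM1215 and SW48 there were 7, all more upward in LIM1215, with 18.3% of all genes. Many of these genes were near background in 1 of the lines, where no change could be measured.

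Where a gene was above background in at least 1 state of both lines, the clearest case was DPP4. Its change in resistant LIM1215 exceeded that in resistant SW48 by 4.53 ± 0.32 (adjusted p = 3.57e-10), and its change in Caco2 exceeded that in SW48 by 3.69 ± 0.32 (adjusted p = 6.73e-09). After withdrawal the same differences were 2.80 and 2.04. HNF4G rose in resistant LIM1215 and fell in resistant SW48, a difference of 2.22 ± 0.27 (adjusted p = 2.75e-06). CDX2 differed by 1.28 between LIM1215 and SW48, by 0.82 between Caco2 and SW48, and by -0.45 between Caco2 and LIM1215 (adjusted p = 0.037). FABP1 rose in resistant Caco2 and was lower in resistant LIM1215, where it was near background (difference 2.61 ± 0.31, adjusted p = 1.30e-06). Its change in LIM1215 was not called without parental replicate 3 (adjusted p = 0.0556). The changes of CDHR5 and VIL1 in resistant Caco2 exceeded those in resistant LIM1215 by 2.97 and 1.33. Without LIM1215 parental replicate 3 the differences were 2.38 and 1.49. VIL1 rose in Caco2 (1.14) and did not rise in LIM1215 (-0.19).

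After withdrawal, fewer genes differed between lines. There were 2 of 31 between Caco2 and SW48 (5.31% of all genes), 5 between Caco2 and LIM1215 (13.4%) and 7 between LIM1215 and SW48 (13.3%). For the pairs with LIM1215 the counts were 8 and 11 without parental replicate 3. APOC3 held a change in withdrawal Caco2 but was near background in LIM1215 and SW48.

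**Figure D5:**
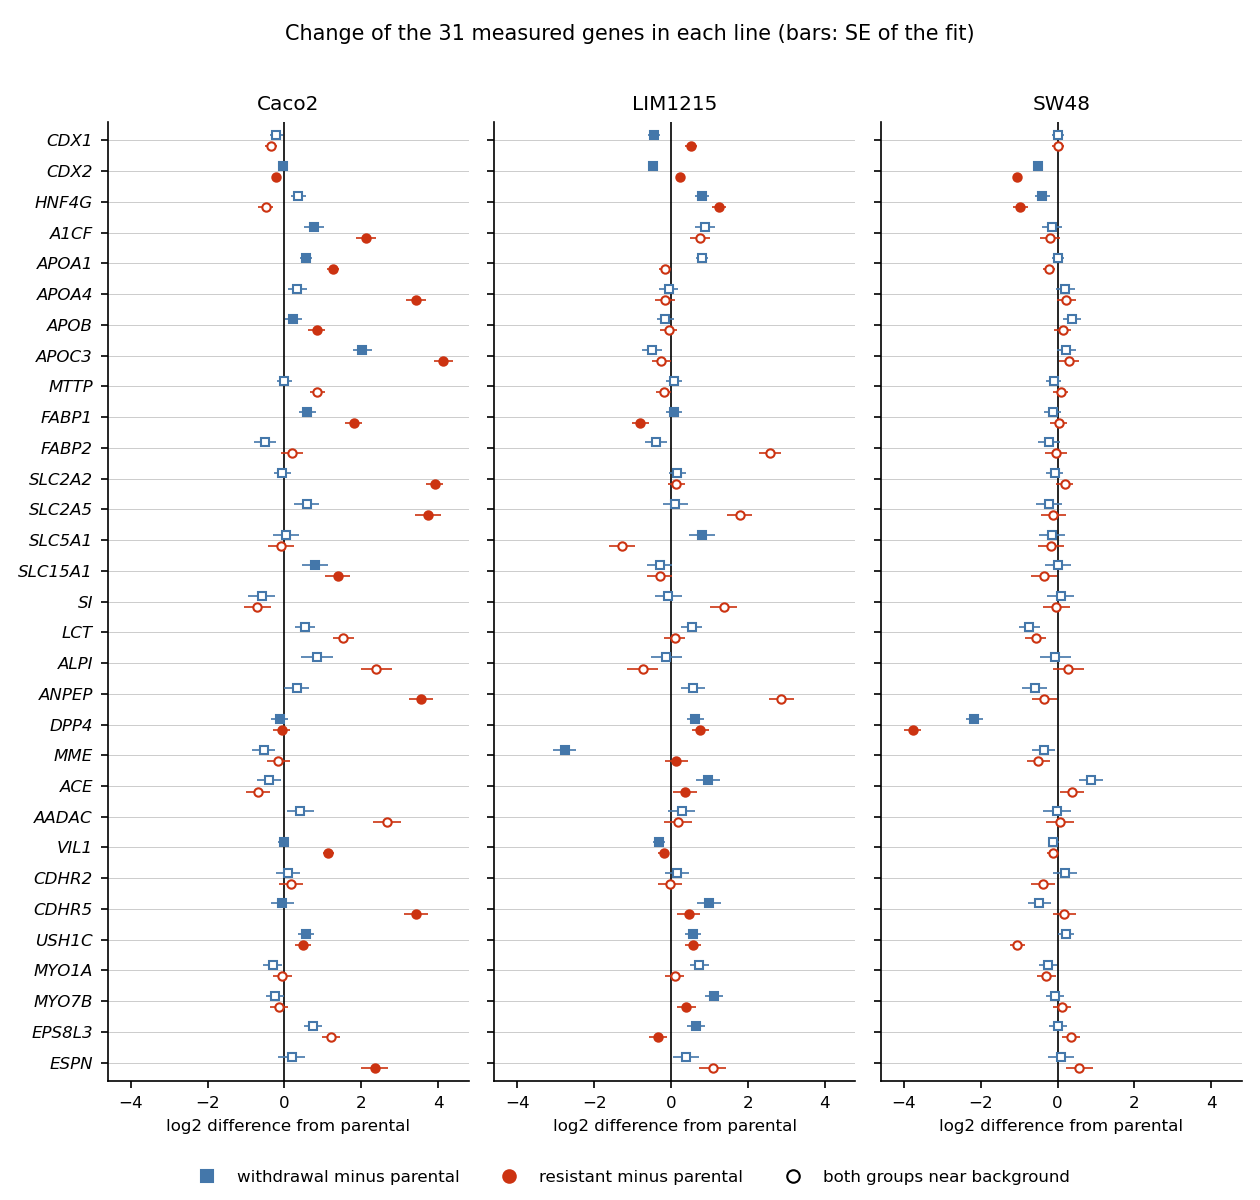
Log2 difference from parental cells (horizontal axis) of the 31 measured genes in withdrawal (squares) and resistant (circles) cells of each line, with SE of the fit as bars and open symbols where both groups are near background. Resistant Caco2 shows the broad rise, with 18 genes called higher, and in SW48 DPP4 at -3.77 and -2.16 stands alone by size.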

How the data were processed

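Total RNA (250 ng per sample, per the labels' protocols) of 27 samples in 9 groups of 3 was labelled with the WT PLUS kit and hybridised to single-colour arrays. The deposited values are log2 intensities per probe set. The base of the logarithm was inferred from their range, and the software, background correction and normalization were not stated in the labels or headers used here. Of 21448 transcript probe sets, 17709 had 1 gene symbol in the platform annotation, giving 17687 genes. For the 20 genes with several probe sets, the probe set with the highest mean over all arrays was kept. Quartiles were alike within a line and differed between lines.

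Group means were fitted with limma 3.58.1 (R 4.3.3, with lmFit, eBayes and the data.table package, version 1.17.8; residual degrees of freedom 18, prior 4.12) on the deposited log2 values of all arrays, with no covariate. Each of 15 contrasts, 9 within lines and 6 between lines, was adjusted by Benjamini-Hochberg over all genes, 2-sided, at 0.05. Background came from 612 negative control probe sets. The fitting script was tested on simulated data with known changes. Figures were drawn with matplotlib 3.10.9 in Python 3.11.15. Precision is limited by how many arrays there were.

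The genes and all lists (transcription factors, fat and sterol absorption, plasma proteins, hydrolases, brush border, solute carriers, colonocyte, goblet, enteroendocrine, stem and WNT, cell cycle, general epithelial, NK and leukocyte, interferon-induced) were chosen with earlier results of these data known. Every array is given for genes called against parental cells by a log2 change of at least 1 with a group above background, and for CDX1, CDX2 and HNF4G. Other genes printed with values were chosen after their values were seen. At most 4 genes were named per other list, by the largest called change. Alternatives were quantile normalization, median centring, a filter on dim genes, an intensity trend, the arrays of the compared lines alone, a replicate block, all probe sets, and leaving out each array.

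Arrays with the same replicate number did not deviate together (correlations of deviations from -0.041 to 0.075 over 27 pairs), so the numbers were not used as pairs.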

Additional observations from a re-analysis of the deposited data

Results flagged for a closer look

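The changes below differed between lines by the interaction test (limma, adjusted over all genes), for genes above background in at least 1 state of both lines. Groups of 3 arrays are too small for the gap test of single values. Values with LIM1215 are also given without its parental replicate 3, which stood apart from replicates 1 and 2.

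For resistant minus parental cells, CDX2 changed by 0.23 in LIM1215 and -1.05 in SW48, a difference of 1.28 (adjusted p = 1.70e-06). HNF4G changed by 1.25 in LIM1215 and -0.97 in SW48, a difference of 2.22 (adjusted p = 2.75e-06). DPP4 changed by 0.76 in LIM1215 and -3.77 in SW48, a difference of 4.53 (adjusted p = 3.57e-10). Without LIM1215 parental replicate 3 these differences were 1.32, 2.37 and 4.90. Between Caco2 and LIM1215, CDX2 changed by -0.22 and 0.23, a difference of -0.45 (adjusted p = 0.037). FABP1 changed by 1.80 in Caco2 and -0.80 in LIM1215, a difference of 2.61 (adjusted p = 1.30e-06). VIL1 changed by 1.14 in Caco2 and -0.19 in LIM1215, a difference of 1.33 (adjusted p = 3.67e-05). CDHR5 changed by 3.42 in Caco2 and 0.46 in LIM1215, a difference of 2.97 (adjusted p = 1.88e-05). Without that array, the change of CDHR5 in LIM1215 was 1.04, and the differences of CDX2, FABP1, VIL1 and CDHR5 were -0.49, 2.52, 1.49 and 2.38. The change of FABP1 in LIM1215 was then not called (-0.72, adjusted p = 0.0556). Between Caco2 and SW48, CDX2 changed by -0.22 and -1.05, a difference of 0.82 (adjusted p = 0.000253), and DPP4 by -0.07 and -3.77, a difference of 3.69 (adjusted p = 6.73e-09).

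For withdrawal minus parental cells, HNF4G changed by 0.81 in LIM1215 and -0.40 in SW48, a difference of 1.21 (adjusted p = 0.00522). DPP4 changed by 0.64 in LIM1215 and -2.16 in SW48, a difference of 2.80 (adjusted p = 6.95e-06), and by -0.12 in Caco2, which differed from SW48 by 2.04 (adjusted p = 0.000321). Without LIM1215 parental replicate 3, HNF4G changed by 0.97 and DPP4 by 1.01 in LIM1215, and they differed from SW48 by 1.36 and 3.17.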

How the results depend on the processing

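None of the changes of the 31 genes was reversed under the alternatives run. Of 210 counts of called genes under settings that kept all replicates, 196 stayed within 1.5 times the reported count, and of 810 counts with 1 array left out, 773 did. The causes of the moves were not tested. In withdrawal against parental Caco2, 1 gene of the set was called, in place of 2, under quantile normalization, median centring and an intensity trend, and 4 with Caco2 arrays alone. With the trend, 4 in place of 2 genes of the set differed between Caco2 and SW48 after withdrawal. With only the arrays of the lines compared, which leaves fewer samples, resistant against parental LIM1215 had 1230 in place of 1913 genes called and 5 in place of 10 of the set. Withdrawal against parental LIM1215 then had 2227 in place of 3724 genes and 4 in place of 11 of the set, and SW48 380 in place of 722 genes and 1 in place of 2 of the set. Differences after withdrawal were then 4 in place of 7 between LIM1215 and SW48 and 3 in place of 5 between Caco2 and LIM1215.

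With the replicate number as a block, 18 genes of the set were called in resistant Caco2 (18 without the block), 9 in resistant LIM1215 (10), 5 in resistant SW48 (4) and 1 in withdrawal Caco2 (2), each against parental cells.

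With 1 array left out, genes of the set called in resistant against parental cells were 18 to 20 in Caco2, 6 to 11 in LIM1215 and 4 to 4 in SW48. Against parental cells, withdrawal had 1 to 4 in Caco2, 5 to 16 in LIM1215 and 2 to 3 in SW48. Withdrawal against resistant cells had 15 to 17, 11 to 13 and 3 to 5 in the same order of lines. Differences between lines in resistant cells were 7 to 9 for LIM1215 and SW48, 19 to 24 for Caco2 and LIM1215 and 18 to 21 for Caco2 and SW48, and after withdrawal 3 to 11, 3 to 8 and 2 to 4. All genes called ranged from 2260 to 5019 for withdrawal against parental LIM1215, 448 to 1099 for SW48, and for differences after withdrawal from 1547 to 3863 for LIM1215 and SW48 and from 1604 to 3960 for Caco2 and LIM1215. The arrays that moved a count by over 1.5 times were LIM1215 parental 1, 2 and 3, resistant 2 and 3 and withdrawal 2 and 3, SW48 parental 1 and 2 and withdrawal 2 and 3, and Caco2 parental and withdrawal 1, 2 and 3. Signal near background limits what can be said of genes such as SLC2A5.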
